A study of Mus musculus with 4 samples.

Results

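The matrix metalloproteases, the ADAMTS proteases and their tissue inhibitors were followed in mouse skin. They were taken as every gene symbol that reads Mmp, Adamts or Timp followed directly by a number. The choice was made by name and not by measured values, though earlier results of these data were known. The rule found 46 of the 23203 unique gene symbols in the files: 23 Mmp, 19 Adamts and 4 Timp genes. Of these, 30 had at least 20 reads in at least 1 library, and the other 16 had at most 16 reads in any library.

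The libraries came from skin of adult C57BL/6 mice, 1 library for each of 4 groups. Wild-type (WT, Egr1+/+) and Egr1 knockout (Egr1-/-) mice were either naive or treated with house dust mite (HDM) extract, an allergen source used to model atopic dermatitis. The ear and neck skin was shaved and treated with the detergent sodium dodecyl sulfate (SDS), and the HDM groups then received 100 mg of HDM cream. All procedures were repeated over 3 weeks, 2 in each week. Both naive groups are labelled SDS and both HDM groups SDS with HDM extract, so all 4 groups share the detergent. The knockout is in all cells, the deleted stretch of Egr1 is not given in the sources used here, and neither is the number of animals behind a library. Egr1 encodes an immediate-early transcription factor, and the stated interest of the study was its part in epidermal innervation.

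Matrix metalloproteases are zinc enzymes that are made as inactive proenzymes and, once activated, cut collagens, elastin, proteoglycans and other proteins outside the cell. ADAMTS proteases are secreted relatives with thrombospondin repeats, and different members trim procollagens, cut large proteoglycans such as versican and aggrecan, or act on fibrillin microfibrils. TIMPs bind the active site of these enzymes, and in skin the balance of proteases and inhibitors is known for its part in wound repair, hair cycling and inflammation.

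Read numbers below are recovered from the deposited log2 values, and every list of 4 values runs in the order WT naive, KO-labelled naive, WT HDM and KO-labelled HDM. The libraries held 9428717 to 10108031 reads, of which 0.195% to 0.418% lay on the 46 genes. Egr1 had 1966, 3158, 1174 and 3494 reads, so it was not lower in the libraries labelled knockout. Its 3′ end may lie outside the deleted part, so this value does not check the genotype, and those libraries are called KO-labelled. Xist had 10, 40, 2195 and 2433 reads and the Y-linked Ddx3y 1925, 2430, 1 and 1, so sex-linked transcripts divided the libraries as the treatment did, and animal sex and HDM cannot be told apart. Markers of interfollicular keratinocytes made up 1.41% to 2.05% of reads in every library, but single markers moved in opposite directions. Krt2 had 61047, 93547, 4493 and 1 reads, and Krt5 28165, 16872, 86170 and 82034. Salivary and lacrimal gland markers made up 6.43% of WT naive, 0.758% of KO-labelled naive and at most 0.00686% of the HDM libraries. The KO-labelled naive library stood apart at low values. Of the 2660 genes with 20 to 70 reads in WT naive, 35.2% were at 0 there, against 2.37% (WT) and 3.8% (KO-labelled) in the HDM libraries, and of the 8 protease or inhibitor genes in that range 4 were at 0 (Mmp9, Mmp11, Mmp12 and Mmp17).

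A fold between libraries compares reads after the scaling of the deposited values and carries an exact 95% Clopper-Pearson interval in parentheses, which covers counting error only. A 0 was taken to allow up to 3 reads in that library, so a fold against 0 is given as at least that size. Against KO-labelled naive, where zeros were frequent, such a fold holds only if that limit does. With 1 library per group no fold has a replicate check or a p-value, and a difference compares those libraries and not the conditions. In whole skin, fewer cells of a type and less RNA per cell cannot be told apart.

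Of the Mmp genes, 10 sit side by side on chromosome 9 (build GRCm38, 7272514 to 7699585), in the order Mmp13, Mmp12, Mmp1b, Mmp3, Mmp1a, Mmp10, Mmp8, Mmp27, Mmp20 and Mmp7, a group that arose by tandem duplication. Their promoters are shown because letters that the AP-1 transcription factor family binds were found in this group and in no other matched member. RefSeq promoter windows (GRCm38.p6, 250 bases before to 50 after a start) matched 32 of the 46 genes with 35 windows. The AP-1 letters TGANTCA, which read the same on both strands, occurred in 8 of the 35 windows (22.9%), against 7.81% of all 32851 windows. They lay in 8 of the 12 windows of the chromosome 9 genes (66.7%) and in 0 of the 23 windows of the other members. The group is shown because it held the matches, so this split is not a test. Duplicated neighbours share ancestry, so these windows are not independent of each other. Counted from the start base as 0, the first letter of the match lay at -46 in Mmp3, -35 in Mmp13, -44 at one start of Mmp12, -63 in Mmp10 and in Mmp7, -73 in Mmp1a, -93 in Mmp1b and -95 in Mmp20. The 120 bases before the start follow for Mmp3 (chr9:7445702-7445821, plus strand), Mmp13 (chr9:7272394-7272513, plus) and, as a neighbour with no match in its window, Mmp8 (chr9:7558309-7558428, plus), with the AP-1 letters in capitals.
Mmp3: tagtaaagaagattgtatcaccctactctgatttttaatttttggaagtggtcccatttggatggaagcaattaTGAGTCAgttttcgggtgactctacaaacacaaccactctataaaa
Mmp13: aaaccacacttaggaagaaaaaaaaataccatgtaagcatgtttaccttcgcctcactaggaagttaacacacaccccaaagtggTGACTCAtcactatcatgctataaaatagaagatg
Mmp8: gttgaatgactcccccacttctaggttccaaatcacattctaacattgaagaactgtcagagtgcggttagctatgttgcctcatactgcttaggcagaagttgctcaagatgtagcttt
A match of letters is a description of the sequence and not a bound site.

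The letters GCGNGGGCG, bound by EGR1 and its relatives, were searched on both strands because Egr1 is the gene knocked out. They occurred in 4 of the 35 windows (11.4%), against 5.55% of all windows, and in none of the chromosome 9 genes. The 4 genes were Adamts14, with matches at -87, -72 and 24, Mmp11 at -23, Mmp14 at -17 and Mmp24 at -33. No match overlapped an AP-1 match. The 120 bases before the start are shown for Adamts14 (chr10:61273420-61273539, minus strand) and Mmp14 (chr14:54431478-54431597, plus), with the EGR1 letters of either strand in capitals.
Adamts14: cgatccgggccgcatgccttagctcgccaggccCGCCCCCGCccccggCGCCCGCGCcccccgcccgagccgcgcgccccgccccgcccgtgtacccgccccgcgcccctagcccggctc
Mmp14: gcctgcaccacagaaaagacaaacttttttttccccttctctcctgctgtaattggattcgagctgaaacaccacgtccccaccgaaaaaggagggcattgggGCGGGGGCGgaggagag
Between the naive libraries, Adamts14 and Mmp11 were lower in the KO-labelled one, Mmp11 through a 0 there. Mmp14 and Mmp24 were higher, Mmp24 by 1.52-fold (1.34 to 1.72), as their reads below show. Between the HDM libraries, Adamts14 was again lower and Mmp14 again higher in the KO-labelled one. Mmp11 and Mmp24 went the other way there, Mmp11 1.66-fold higher (1.37 to 2.03) and Mmp24 1.38-fold lower (1.13 to 1.68). A link of the letters to these values was not tested.

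**Figure D1:**
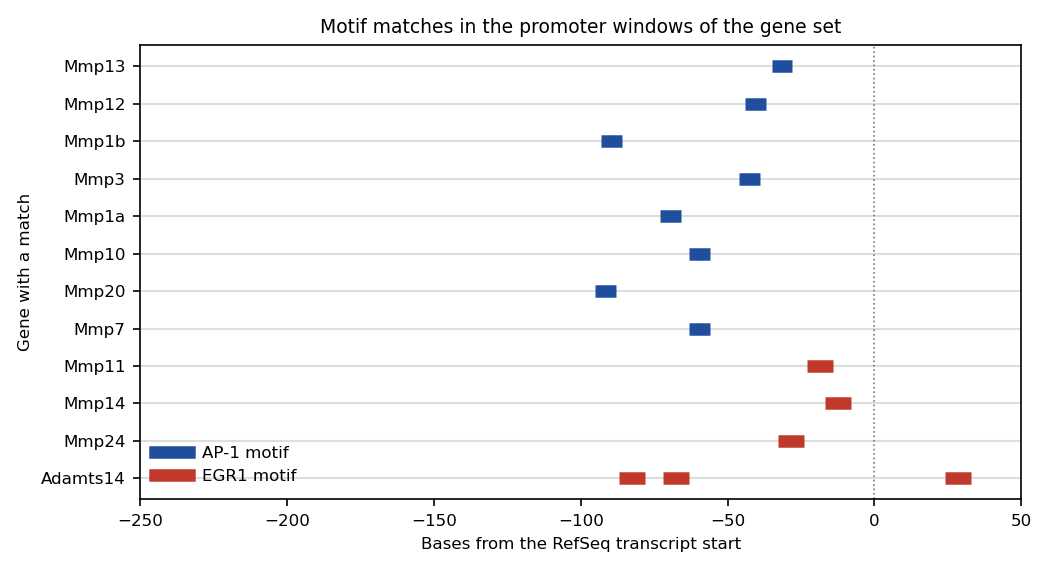
Positions of the AP-1 and EGR1 letter matches in the promoter windows of the members that hold one, in bases from the start (horizontal axis), 1 row per window. The AP-1 matches are all in chromosome 9 Mmp genes, between -95 and -35, and the EGR1 matches are all in other members.

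Under HDM, the collagenase transcripts Mmp8 and Mmp13 had reads in both libraries and were at 0 in both naive ones. Mmp8 (chr9:7558429-7568486), the collagenase stored in neutrophil granules, had 0, 0, 124 and 213 reads. HDM skin was at least 42.2-fold higher than naive skin in WT and at least 71.2-fold higher in the KO-labelled pair. Mmp13 (chr9:7272514-7283333), the main interstitial collagenase of mice, had 0, 0, 34 and 80 reads, at least 11.6-fold and at least 26.7-fold higher. Between the HDM libraries Mmp13 was 2.05-fold higher (1.36 to 3.16) and Mmp8 1.50-fold higher (1.19 to 1.88) in the KO-labelled one. The other collagenases, Mmp1a and Mmp1b, had at most 5 reads.

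Neutrophil markers moved only in part with Mmp8. The 3 measured ones, S100a8, S100a9 and Cxcr2, were all 2-fold or more higher under HDM in both pairs, 3 of 3 lower in KO-labelled than WT naive skin, and 0 higher and 2 lower in KO-labelled than WT HDM skin, where Mmp8 was higher. The summed reads of the 9 markers analysed were 583, 43, 185008 and 81763. In both HDM libraries nearly all came from S100a8 and S100a9, which keratinocytes also express. Cxcr2 had 16, 3, 196 and 163 reads. Of the markers below the filter, Csf3r had 22, 1, 68 and 70 reads, Retnlg 19, 0, 62 and 88, Trem1 0, 0, 28 and 32, and Ltf 0, 0, 3 and 10. The granule genes Camp and Ngp differed from these, with 12, 39, 0 and 6 reads for Camp and 10, 0, 5 and 9 for Ngp. S100a8, S100a9, Retnlg, Ngp, Ltf and Trem1 were at 0 in KO-labelled naive. Ly6g is not analysed here. The part of neutrophil number in the Mmp8 values was not tested.

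The gelatinases behaved differently from each other. Mmp2 (chr8:92827290-92853421), gelatinase A of fibroblasts, had 823, 2302, 765 and 380 reads. The KO-labelled naive library was the highest and the KO-labelled HDM library the lowest, while the WT libraries were close, 1.05-fold lower under HDM (0.954 to 1.16). In the KO-labelled pair HDM was 6.04-fold lower (5.42 to 6.75). KO-labelled skin was 2.48-fold higher than WT when naive (2.29 to 2.69) and 2.31-fold lower under HDM (2.04 to 2.62). Mmp9 (chr2:164940326-164955850), gelatinase B, had 44, 0, 70 and 113 reads. It was 1.62-fold higher under HDM in WT (1.10 to 2.42), and at least 37.8-fold higher in the KO-labelled pair, where the naive library had the many zeros described above.

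Mmp3 (chr9:7445822-7455975) and Mmp11, both named stromelysins, were the 2 measured Mmp genes that were 2-fold or more higher under HDM in WT. Mmp3, stromelysin-1, which cuts proteoglycans and activates procollagenases, had 123, 756, 925 and 463 reads. WT naive was the lowest library and WT HDM the highest. HDM was 7.68-fold higher in WT (6.35 to 9.34) and 1.63-fold lower in the KO-labelled pair (1.45 to 1.83). KO-labelled skin was 5.45-fold higher than WT when naive (4.50 to 6.65) and 2.29-fold lower under HDM (2.05 to 2.57). Mmp11 (chr10:75923221-75932502), stromelysin-3, which is activated inside the cell by furin, had 67, 0, 156 and 298 reads. HDM was 2.38-fold higher in WT (1.77 to 3.21) and at least 99.6-fold higher in the KO-labelled pair, and that last value rests on a 0 in KO-labelled naive. Between the HDM libraries Mmp11 was 1.66-fold higher in the KO-labelled one (1.37 to 2.03).

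Mmp12 (chr9:7344397-7360461), the elastase of macrophages, had 32, 0, 47 and 17 reads. The WT pair did not differ beyond counting error, with HDM 1.50-fold higher (0.937 to 2.43), and under HDM the KO-labelled library was 3.17-fold lower (1.79 to 5.90). Of the 13 macrophage and monocyte markers, all measured, 7 were 2-fold or more higher and 0 lower under HDM in WT, and 0 higher and 3 lower in the KO-labelled pair. In KO-labelled naive 5 were higher and 0 lower than in WT naive, while Mmp12 went from 32 to 0 reads, and in KO-labelled HDM 0 were higher and 1 lower than in WT HDM. Their summed reads were 4620, 11093, 9585 and 7946, and the part of macrophage number in the Mmp12 values was not tested.

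**Figure D2:**
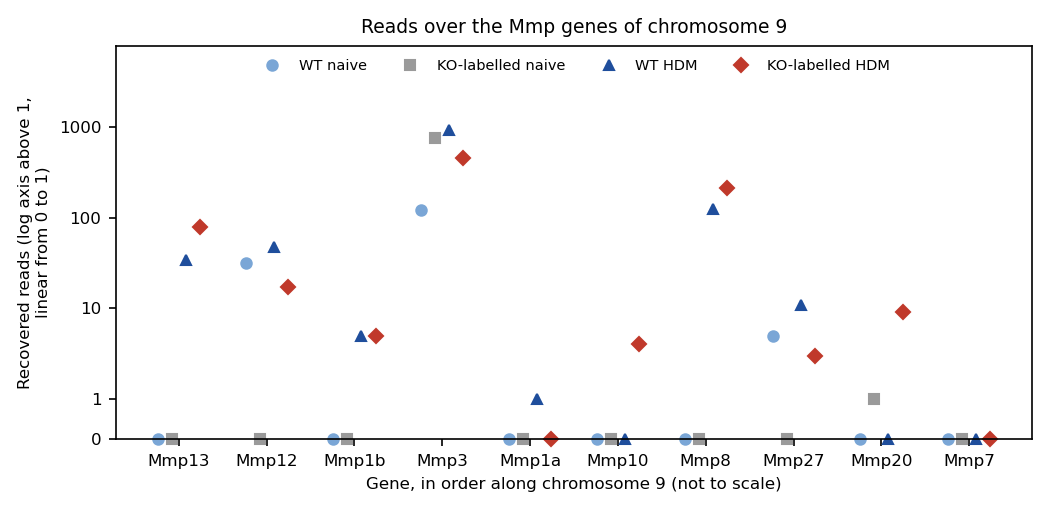
Recovered reads (vertical axis, logarithmic above 1 read and linear below) of the 10 neighbouring Mmp genes of chromosome 9 in their order on the chromosome, 1 point per library. Mmp3 was the one gene of the group with over 100 reads in a naive library. Mmp13 and Mmp8 had reads in the HDM libraries only, at 34 to 213.

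Of the membrane-anchored members, Mmp14 (chr14:54431598-54442456) is the enzyme that activates Mmp2 with Timp2 as its partner. It had 3450, 8553, 3228 and 5893 reads. Both KO-labelled libraries were above both WT libraries, 2.20-fold when naive (2.11 to 2.29) and 1.59-fold under HDM (1.52 to 1.66), while the WT libraries were within counting error of each other (HDM 1.05-fold lower, 0.998 to 1.10). Mmp24 had 388, 664, 222 and 185 reads and was lower under HDM, 1.71-fold in WT (1.45 to 2.03) and 3.58-fold in the KO-labelled pair (3.04 to 4.23). Mmp15 had 128, 111, 68 and 75 reads and stayed under a 2-fold difference in each comparison. Mmp16 had 6, 0, 0 and 56 reads, and KO-labelled HDM was at least 16.3-fold above WT HDM. Mmp17, held by a lipid anchor, had 24, 0, 41 and 45 reads.

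Of the remaining Mmp genes, Mmp19 had 292, 261, 484 and 434 reads. It was higher under HDM by like amounts, 1.69-fold in WT (1.46 to 1.96) and 1.67-fold in the KO-labelled pair (1.43 to 1.95). Mmp23 had 170, 185, 143 and 173 reads, and in all 4 comparisons its interval included 1.

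The 3 procollagen N-proteinases, which remove the amino-terminal propeptide of fibrillar procollagens, were all lower under HDM. Adamts2 (chr11:50602085-50807573) had 2135, 4252, 681 and 674 reads, with both naive libraries far above both HDM libraries. HDM was 3.07-fold lower in WT (2.82 to 3.35) and 6.29-fold lower in the KO-labelled pair (5.80 to 6.83). Adamts14 (chr10:61197112-61273419) had 256, 109, 58 and 41 reads. It was 4.32-fold lower under HDM in WT (3.24 to 5.85), 2.65-fold lower in the KO-labelled pair (1.84 to 3.89), and 2.65-fold lower in KO-labelled than WT naive skin (2.11 to 3.35). Adamts3 had 58, 49, 3 and 9 reads, 18.9-fold lower in WT (6.17 to 94.5) and 5.43-fold lower in the KO-labelled pair (2.64 to 12.6).

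Fibroblast markers moved in part with these values. All 13 were measured, and their summed reads were 190859, 414804, 72291 and 61552, so the naive libraries were also the high ones here, largely through the collagens Col1a1, Col1a2 and Col3a1. Under HDM 4 markers were 2-fold or more higher and 4 lower in WT, against 0 higher and 8 lower in the KO-labelled pair. Between the naive libraries 5 were higher and 0 lower in the KO-labelled one, and between the HDM libraries 0 passed either way. Pdgfra, among the 4 higher under HDM in WT, had 372, 908, 803 and 725 reads, and Thy1, among the 4 lower, had 4882, 6586, 1795 and 2238. The part of fibroblast content in the Adamts2, Mmp2 and Mmp14 values was not tested.

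Among the ADAMTS enzymes that cut versican and aggrecan, Adamts15 (chr9:30899155-30922452) showed the widest HDM difference in WT of the 19 measured members. It had 115, 187, 1367 and 543 reads, with both HDM libraries above both naive ones. HDM was 12.1-fold higher in WT (10.0 to 14.8) and 2.91-fold higher in the KO-labelled pair (2.46 to 3.46). Under HDM the KO-labelled library was 2.89-fold lower than WT (2.61 to 3.20). Adamts5 (chr16:85858157-85901125), a main aggrecanase of cartilage, had 374, 868, 810 and 1108 reads, lowest in WT naive. It was 2.21-fold higher under HDM in WT (1.95 to 2.51) and 1.28-fold higher in the KO-labelled pair (1.17 to 1.40).

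Adamts1 (chr16:85793827-85803113), the neighbour of Adamts5 on chromosome 16, had 543, 1421, 562 and 804 reads. The KO-labelled naive library was the highest, 2.32-fold above WT naive (2.10 to 2.57), and the WT pair did not differ beyond counting error (1.06-fold higher under HDM, 0.937 to 1.19). Adamts9 had 21, 101, 28 and 66 reads, so both KO-labelled libraries were above both WT ones, 4.26-fold when naive (2.65 to 7.19) and 2.05-fold under HDM (1.30 to 3.32). Adamts20, known for its part in pigment cell migration in mouse skin, had 13, 0, 29 and 63 reads. Adamts8 had 9, 22, 10 and 1 reads.

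Cartilage markers, which an ear sample can hold, were lower under HDM. Of 7 measured markers 0 were higher and 5 lower in WT, 0 higher and 6 lower in the KO-labelled pair, and 0 higher and 1 lower in KO-labelled naive against WT naive. In KO-labelled HDM 6 of the 7 were 2-fold or more below WT HDM. The summed reads of the 11 cartilage markers analysed were 32980, 27746, 19374 and 5591. Nearly all of the KO-labelled HDM sum was Sox9, which had 6367, 3432, 4910 and 5517 reads. Cytl1 had 17253, 17119, 11608 and 26 reads, and Chad 4805, 2765, 1651 and 1. Col2a1, Col9a1, Col11a2, Matn1 and Matn3 were at 0 in KO-labelled HDM, Matn1 in every library and Matn3 in WT HDM as well. Whether cartilage content moves the aggrecanase or inhibitor values was not tested.

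Of the ADAMTS enzymes tied to fibrillin microfibrils, Adamts10 (chr17:33523646-33553782) had 405, 550, 131 and 139 reads. Both HDM libraries were below both naive ones, 3.03-fold in WT (2.48 to 3.72) and 3.94-fold in the KO-labelled pair (3.27 to 4.79). Adamts6 had 0, 31, 6 and 0 reads. Adamts17 had 22, 99, 9 and 24 reads, 2.39-fold lower under HDM in WT (1.06 to 5.91) and 4.11-fold lower in the KO-labelled pair (2.61 to 6.72).

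The 4 inhibitors did not move together. Timp1 (chrX:20870166-20874737), the inhibitor that injury and cytokines induce, had 54, 140, 602 and 301 reads, and both HDM libraries were above both naive ones. HDM was 11.4-fold higher in WT (8.61 to 15.3) and 2.16-fold higher in the KO-labelled pair (1.76 to 2.65). KO-labelled skin was 2.30-fold higher than WT when naive (1.67 to 3.21) and 2.30-fold lower under HDM (2.00 to 2.65). Timp1 is on the X chromosome, and the libraries with Xist reads were the HDM ones, so sex and HDM cannot be told apart for it.

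Timp2 (chr11:118301061-118355411), which blocks Mmp2 and also presents pro-Mmp2 to Mmp14, had 3124, 6632, 4880 and 2642 reads. HDM was 1.59-fold higher in WT (1.52 to 1.67) and 2.50-fold lower in the KO-labelled pair (2.39 to 2.62), so the pairs differed in direction. Timp3 (chr10:86300412-86349505), bound to the matrix and an inhibitor of ADAMTS and ADAM enzymes as well, had 11957, 13818, 5385 and 4665 reads. Both naive libraries were above both HDM libraries, and HDM was 2.18-fold lower in WT (2.11 to 2.25) and 2.95-fold lower in the KO-labelled pair (2.86 to 3.05). Timp4 (chr6:115244444-115252205) had 372, 330, 153 and 198 reads, 2.38-fold lower under HDM in WT (1.97 to 2.89) and 1.66-fold lower in the KO-labelled pair (1.39 to 1.99).

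Exons of Mmp11, Mmp19, Mmp24, Timp3 and Timp4 overlap those of a gene on the opposite strand that the files also list. The strand used in counting is not given in the sources used here. Reads that fall in such an overlap therefore cannot be told apart from those of the antisense partner. How many reads of these 5 genes lie there was not examined.

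**Figure D3:**
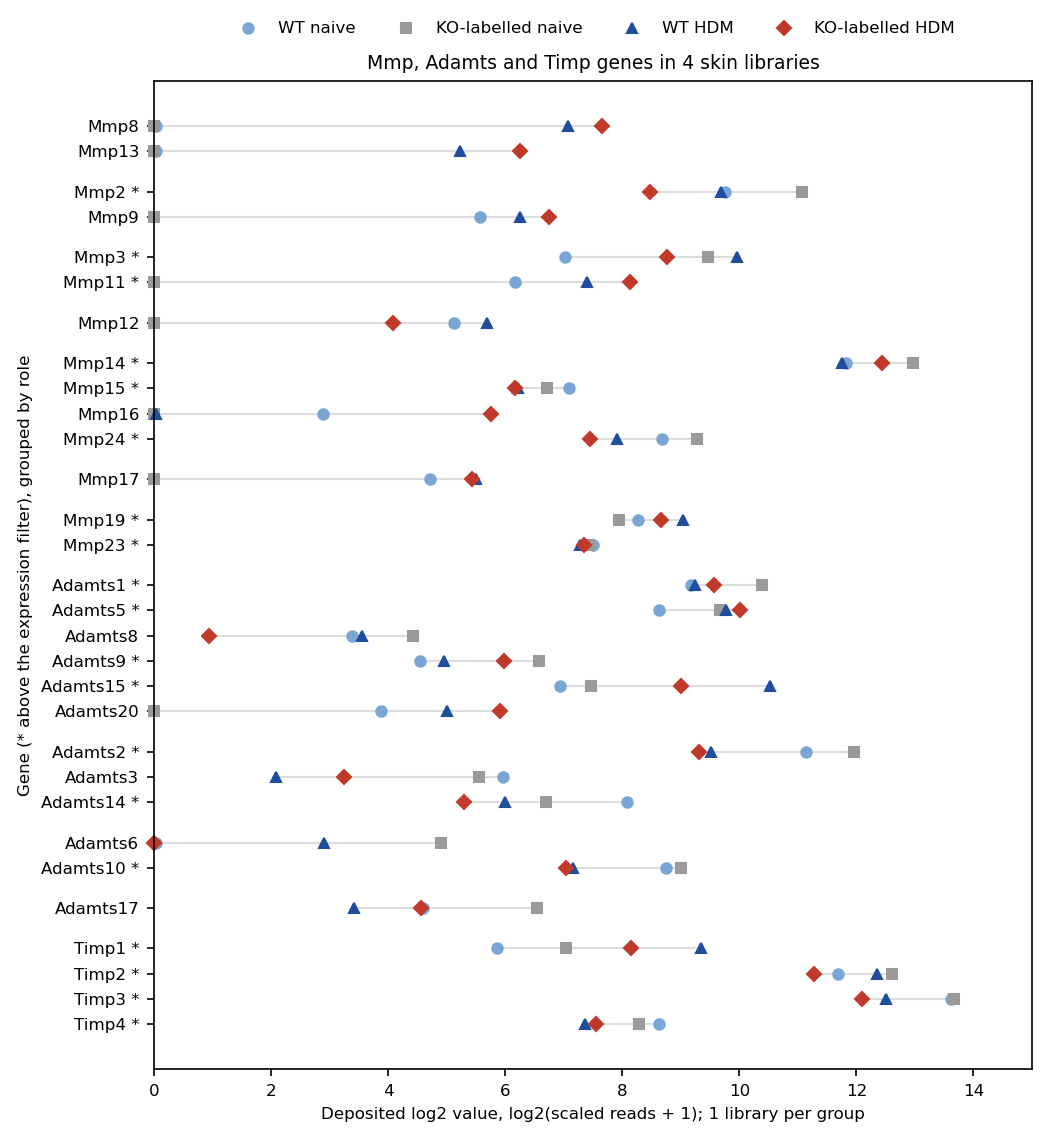
Deposited log2 values (horizontal axis) of the 30 members with at least 20 reads in a library, grouped by role, with 1 point per library. Timp3 and Mmp14 are at the right, and points at 0 show the members with no reads in KO-labelled naive, such as Mmp9 and Mmp11.

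The remaining 16 members were at the limit of detection. Of these, 12 had 1 to 16 reads in at least 1 library, and Adamts18, Adamts19, Mmp7 and Mmp28 had 0 in every library, which allows up to 3 reads in each. Adamts4 and Adamts7 reached 16 reads, both in WT HDM. Over all 46 genes, 32, 24, 39 and 38 had at least 1 read.

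Counts over the members were taken on the 19 measured ones, those with a mean log2 value above 5.11, the median of all genes, which 11600 genes passed. They were 8 Mmp, 7 Adamts and all 4 Timp genes. A member measured through 1 high group had to differ, so these counts describe the measured members and not all 46. In WT skin, 5 of 19 were higher by 2-fold or more under HDM (Adamts15, Timp1, Mmp3, Mmp11 and Adamts5), against 14.5% of all measured genes. Lower by as much were also 5 of 19 (Adamts14, Adamts2, Adamts10, Timp4 and Timp3), against 12.7%. The median log2 difference was -0.07 for the members and 0.03 for all measured genes.

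In KO-labelled skin, 3 of 19 were higher under HDM (Mmp11, Adamts15 and Timp1; 21.7% of all measured genes) and 7 of 19 lower (Adamts2, Mmp2, Adamts10, Mmp24, Timp3, Adamts14 and Timp2; 18.2%). Here the median was -0.70 for the members and 0.06 for all. Adamts2, Adamts10, Adamts14 and Timp3 were thus lower past 2-fold in both pairs, and Adamts15, Timp1 and Mmp11 higher in both. Without Mmp11, the 1 measured member at 0 in KO-labelled naive, 2 of 18 were higher and 7 of 18 lower.

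**Figure D4:**
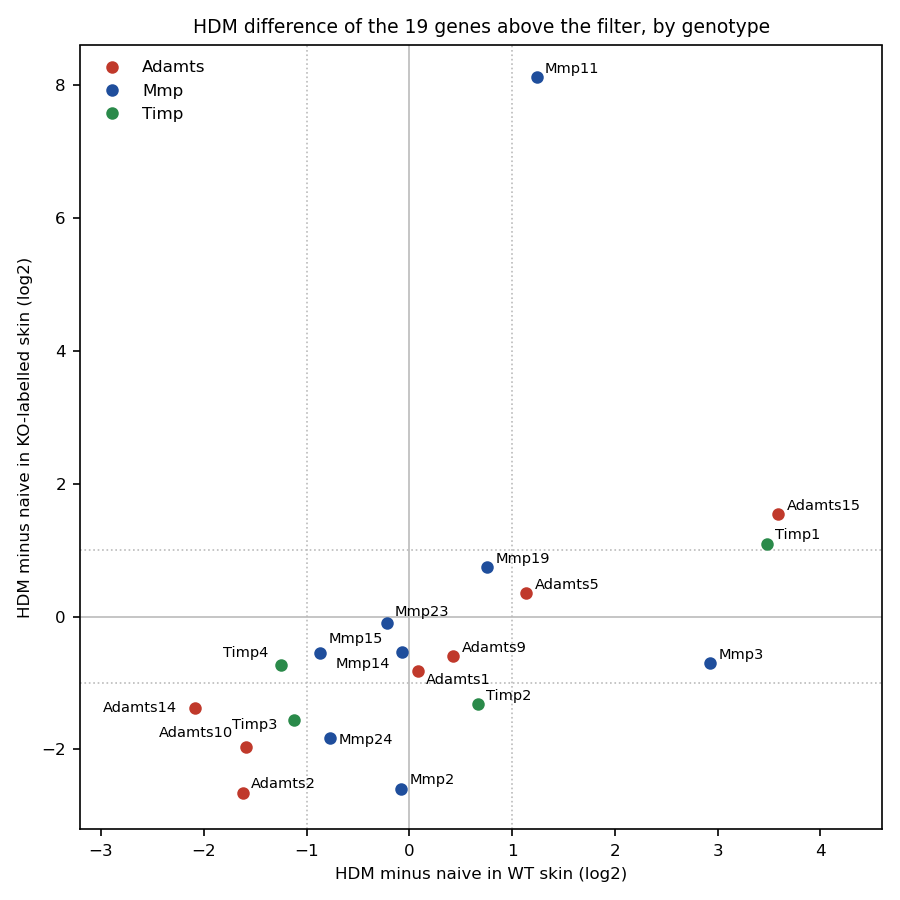
Log2 difference of HDM from naive in WT skin (horizontal axis) and in KO-labelled skin (vertical axis) for the 19 measured members, 1 point per gene. Adamts15 and Timp1 lie high in both, Adamts2, Adamts10 and Timp3 low in both, and Mmp3 and Timp2 lie on opposite sides of 0.

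KO-labelled against WT in naive skin gave 7 of 19 higher (Mmp3, Adamts9, Mmp2, Adamts1, Timp1, Mmp14 and Adamts5), against 13.6% of all measured genes. The lower ones were 2 of 19, Mmp11 and Adamts14, against 17.1%. The median was 0.60 for the members and -0.03 for all. Without the filter, over the 42 members with reads, the median was -0.01 between the naive libraries (-0.07 for all genes), 0.00 for HDM in the KO-labelled pair (0.26) and 0.62 for HDM in WT (0.03). In HDM skin, 1 of 19 was higher in the KO-labelled library (Adamts9; 3.06% of all) and 5 of 19 lower (Adamts15, Mmp2, Timp1, Mmp3 and Timp2; 4.66%), with a median of -0.21 for the members and -0.01 for all. Mmp2, Mmp3 and Timp1 were thus higher in the KO-labelled naive library and lower in the KO-labelled HDM library, each by 2-fold or more. These comparisons share libraries with the HDM ones, so the counts are not independent of each other. Without Mmp11, 7 of 18 were higher and 1 of 18 lower between the naive libraries.

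**Figure D5:**
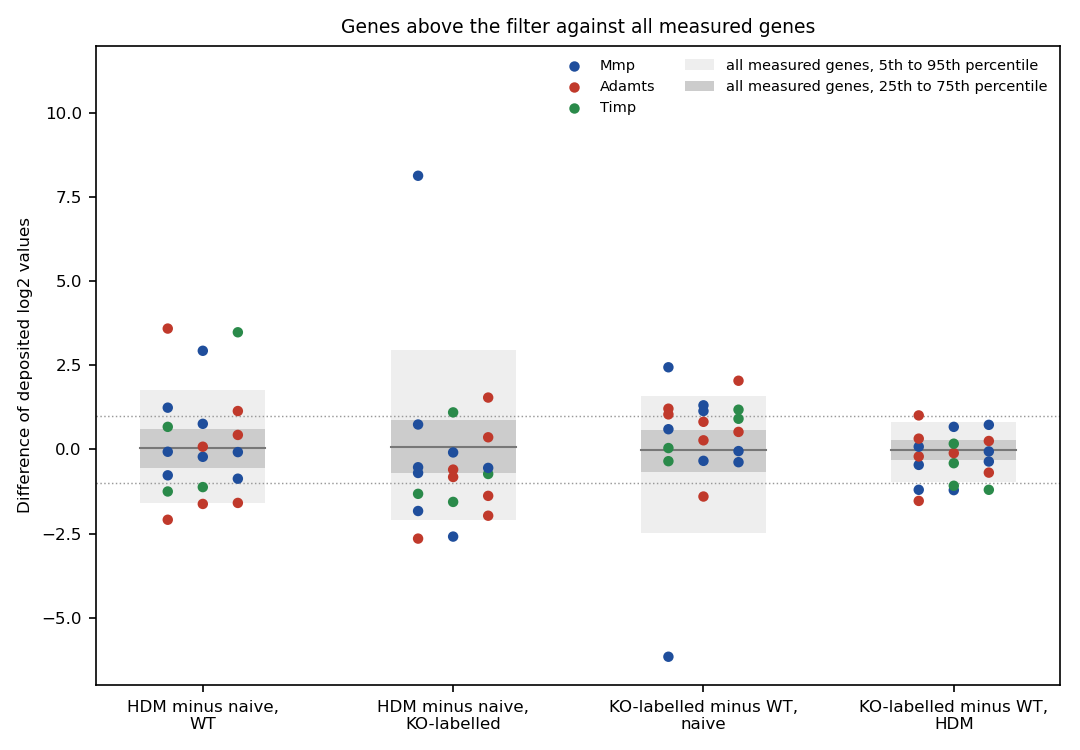
Log2 differences of the 19 measured members (points) in the 4 comparisons, over bars for the 5th to 95th (light) and 25th to 75th (dark) percentiles of all 11600 measured genes, with a line at their median. In KO-labelled HDM against naive the members' median, -0.70, lies below that of all genes, 0.06, and between the naive libraries it lies above, 0.60 against -0.03. Without the filter these members' medians were 0.00 and -0.01.

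The only p-values this design allows come from a limma fit of treatment plus genotype, adjusted by Benjamini-Hochberg over 11600 genes. Each gene has 1 residual degree of freedom in it, and most of the error is shared across genes. It treats both genotypes as responding alike. Sex-linked transcripts divided the libraries as treatment did, so its treatment term cannot be told apart from a sex term. Its treatment term called 2 of 19 members, against 4.12% of all measured genes. Adamts2 fell by 2.13 on the log2 scale (SE 0.37, limma adjusted p = 0.0155), lower in both pairs. Adamts15 rose by 2.56 (SE 0.55, limma adjusted p = 0.0369), higher in both pairs. Timp3 at -1.34 (SE 0.32, limma adjusted p = 0.0546), Adamts10 at -1.78 (SE 0.49, limma adjusted p = 0.0832) and Timp1 at 2.29 (SE 0.67, limma adjusted p = 0.1) missed the threshold. Of 9 settings, Timp3 was called in 4 (limma adjusted p from 0.0115 to 0.325), Timp1 in 3 (0.00787 to 0.323) and Adamts10 in 2 (0.0209 to 0.298). Over the same settings, the adjusted p ran from 4.08e-08 to 0.292 for Adamts2 and from 2.73e-06 to 0.3 for Adamts15, the highest without limma's intensity trend, where neither was called. The genotype term called 0 of 19 members and 0% of all genes by limma. At an unadjusted p under 0.05 it held 1 member, Mmp14 (0.90, SE 0.32, limma adjusted p = 1.0), and 381 of 11600 genes, and no other tool was run.

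Other genes of the system were read from fixed lists. For these and the marker lists, the shares of all measured genes past 2-fold stand beside each count, higher then lower. They were 14.5% and 12.7% under HDM in WT, and 21.7% and 18.2% in the KO-labelled pair. For KO-labelled against WT they were 13.6% and 17.1% when naive, and 3.06% and 4.66% under HDM. Of 18 measured activators, inhibitors and clearance factors, 4 were 2-fold or more higher and 3 lower under HDM in WT, and 5 higher and 7 lower in the KO-labelled pair, with medians of 0.23 and -0.65. Klk6, a serine protease of stratified epithelia, had 12, 88, 5038 and 3637 reads, the largest difference of the list in WT, 429-fold (245 to 830.0). A2m, which traps proteases of many classes, had 353, 484, 8 and 0 reads. It was 43.2-fold lower in WT (21.7 to 101.0) and at least 161.0-fold lower in the KO-labelled pair. Between genotypes, 6 of the list were higher and 3 lower in KO-labelled naive, and 1 higher and 2 lower in KO-labelled HDM.

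ADAMTS-like proteins, which lack a protease domain, had 3 measured members. In WT 0 were higher and 0 lower under HDM, and in the KO-labelled pair 0 were higher and 2 lower, Adamtsl5 by 3.19-fold (2.61 to 3.93) and Adamtsl1 by 3.18-fold (2.55 to 4.01). In KO-labelled naive 2 were higher and 0 lower, and in KO-labelled HDM 0 were higher and 1 lower. All 8 ADAM sheddases were measured, with 1 higher and 1 lower in each HDM comparison. Adam19 had 93, 239, 32 and 69 reads and was lower in both pairs, by 2.85-fold (1.89 to 4.40) and 3.45-fold (2.63 to 4.58). Adam9 was 2.74-fold higher under HDM in WT (1.99 to 3.82) and 1.81-fold lower in the KO-labelled pair (1.45 to 2.26). Adam8, found on leukocytes, was 3.07-fold higher in the KO-labelled pair (2.37 to 4.02) and 1.62-fold higher in WT (1.35 to 1.95). Against WT, 3 sheddases were higher and 1 lower in KO-labelled naive, and 1 higher and 0 lower in KO-labelled HDM.

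The matrix proteins that these enzymes cut were mostly lower in the KO-labelled pair. Of 19 measured substrates 2 were higher and 5 lower under HDM in WT (14.5% and 12.7% of all measured genes). In the KO-labelled pair 1 was higher and 12 lower (21.7% and 18.2%). The medians were -0.59 in WT and -1.38 in the KO-labelled pair. Col1a1, Col1a2, Col3a1, Dcn and Lum are fibroblast markers above as well, so the counts of both lists are not independent. Col1a1, the main fibrillar collagen, had 92467, 174445, 16576 and 19878 reads, 5.46-fold lower in WT (5.37 to 5.56). Col17a1, a collagen of basal keratinocytes, was 3.88-fold lower in WT (3.58 to 4.21). Acan, the aggrecan core protein that Adamts5 cuts and a cartilage marker as well, had 2065, 1916, 742 and 31 reads, and Eln, elastin, 5006, 8649, 1531 and 545. In the KO-labelled pair Acan was 61.6-fold lower (43.3 to 90.9) and Eln 15.8-fold lower (14.5 to 17.3). Of the substrates, 5 were higher and 1 lower in KO-labelled naive, and 0 higher and 2 lower in KO-labelled HDM.

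The other cell type markers gave the following counts of 2-fold differences, higher then lower. Hair follicle markers (10 measured) showed 9 and 0 under HDM in both pairs, and their summed reads were 446, 690, 22928 and 62638. Wound keratinocyte markers (8 measured) showed 7 and 0 in WT and 8 and 0 in the KO-labelled pair. Interfollicular keratinocyte markers (8) showed 4 and 3 in WT and 3 and 5 in the KO-labelled pair. Endothelial (7) and skeletal muscle markers (8) showed 2 and 1, and 1 and 2, in each pair. Salivary and lacrimal gland markers (5) showed 0 and 4 in WT and 1 and 4 in the KO-labelled pair. In KO-labelled against WT skin, hair follicle markers showed 2 and 5 when naive, and 7 and 0 under HDM. Wound keratinocyte markers showed 1 and 4, then 0 and 3, and interfollicular keratinocyte markers 0 and 2, then 0 and 4. Endothelial markers showed 1 and 2, then 0 and 0, skeletal muscle markers 0 and 0 in both, and gland markers 0 and 5 in both. The part of these cell types in the protease and inhibitor values was not tested.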

How the data were processed

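RNA of whole skin was sequenced with the QuantSeq 3′ kit, 1 library per group, from 500 ng of total RNA, per the labels' protocols. The authors deposited log2 values with 3 decimals for 23282 lines per library, and the submitters' processing notes name Bowtie2, bedtools and mm10. No normalization, annotation or counting strand is given in the sources used here. Below 200 reads, 2 to the power of the value, minus 1, gave whole multiples of 1 step per library (0.936 to 1.078), for 96.2% to 99.3% of genes within 0.1 read, so the values are log2(x + 1) of scaled reads. Reads above 200 are approximate. Each value was rounded to the nearest whole read, and a 0 is a value that rounded to 0. Values above 0 but under 0.1 read numbered 2109 in WT naive and 1121 in WT HDM, against 0 in each KO-labelled library. So the WT and KO-labelled libraries differed at the lowest values, and the cause was not tested. Duplicated symbols were left out (35 symbols on 79 lines).

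The members and lists were chosen with earlier results of these data known. Every member with at least 20 reads in a library was named, and the 2 widest differences past 2-fold per pathway list and HDM comparison. The lists were activators, inhibitors and clearance factors, ADAMTS-like proteins, ADAM sheddases, matrix substrates, and markers of neutrophils, macrophages, fibroblasts, cartilage, hair follicle, wound and interfollicular keratinocytes, endothelium, skeletal muscle, gland and sex. Reads lack molecular identifiers, so intervals cover counting error only. Models were fitted with limma 3.58.1 in R 4.3.3, and the rest used Python 3.11.15 with scipy 1.17.1, pandas 2.3.3 and numpy 2.4.6, and scripts were tested on simulated data. Filters, scalings, the pseudocount (1 or 10), values at 0 and limma's trend were varied.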

Additional observations from a re-analysis of the deposited data

Results flagged for a closer look

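Mmp3 and Timp2 differed in the direction of their HDM response between the genotypes, with both counting intervals of each gene away from 1. Genes outside the set did so as well, among them Adam9, Mrc1 and Tnc, so this is not particular to Mmp3 and Timp2. Its share over all measured genes was not counted. The log2 difference of HDM from naive was 2.93 in WT and -0.70 in KO-labelled skin for Mmp3, a gap of 3.63. For Timp2 it was 0.67 in WT and -1.32 in KO-labelled skin, a gap of 2.0. With 1 library per group the difference between the genotypes was not tested.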

How the results depend on the processing

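With 1 library per group, leaving out a replicate was not possible. No paired analysis was possible because each group holds 1 library. Without a filter on low values, 42 members entered. Of these, 17 were higher and 8 lower under HDM in WT (22.6% and 17.2% of all genes entered), and 18 and 12 in the KO-labelled pair (33.7% and 16.3%). In KO-labelled against WT skin, 10 were higher and 11 lower when naive (12.7% and 28.8%), against 7 and 2 with the filter, and 7 and 14 under HDM (9.03% and 13.0%). With a stricter filter (mean log2 above 7, 15 members) 0 were lower between the naive libraries (12.6% of all) and 0 higher between the HDM libraries (1.84%). With a pseudocount of 10, 0 were higher between the HDM libraries, where Adamts9 went from 1.01 to 0.84. Without genes at 0 in KO-labelled naive, 1 was lower between the naive libraries (15.4%). The treatment term of the limma fit called 7 members without a filter (7.33% of all), 5 with the stricter filter (10.9%), 4 without genes at 0 in KO-labelled naive (6.94%) and 0 without the intensity trend (0.129%). For none of these changes was the cause tested. Under equal totals the median of all genes shifted by 0.12 (naive) and 0.10 (HDM) in KO-labelled against WT, and Timp2 went from 0.91 to 1.04 and from -1.08 to -0.99. Of 480 values of single members under the alternatives, 442 stayed within their counting interval or within 0.1 of the log2 value given, 38 moved further, and 0 of those past 2-fold changed direction.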
